A study of Mus musculus with 12 samples.

Results

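The proliferin genes Prl2c2, Prl2c3 and Prl2c5 were described in RNA-seq of mouse embryonic fibroblasts (MEFs) that had or had lost RTF2, a replication termination factor. The 3 genes were taken by name, and all 3 were present among the 24100 genes of the count table. Prl2c3 had been chosen for its higher counts in RTF2-deficient cells of both lines, so its comparison between genotypes, and that of its paralogs on the same libraries, is given as a description with no test. The MEFs were isolated from mid-gestation embryos of a C57BL/6 background and immortalized with SV40 large T antigen. They came from 2 lines with different mothers, and each line had Rtf2+/+ cells (WT) and littermate Rtf2-/lox cells (RTF2-deficient). In the "-" allele exon 3 is deleted, and the lox allele loses it through Cre recombinase. All 4 groups, WT included, received a Hit & Run Cre retrovirus 72 hrs before collection. Each group had 3 libraries, which the study calls technical replicates, so p-values measure the spread between these libraries and not that between embryos.

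Proliferins, also called mitogen-regulated proteins, are secreted hormones of the prolactin family. In the animal they are made mainly by trophoblast giant cells of the placenta and promote the growth of blood vessels. In cultured fibroblasts their transcripts are known to respond to serum and growth factors. They bind the receptor for IGF2 and mannose-6-phosphate, which is encoded by Igf2r. The proliferin genes are near-identical copies, which limits how reads can be divided among them.

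Library totals lay between 39360167 and 44695002 counts with a median of 42066300. A gene with no count in a library could have had up to 3 counts, or 0.0651 to 0.0770 CPM (counts scaled to the library's size, normalized by the TMM method), and this limit and all intervals on counts cover counting error only. Rtf2 was at 44.8 to 57.8 CPM in WT libraries and at 5.44 to 6.66 CPM in RTF2-deficient libraries, as the labels have it. The 11 fibroblast markers summed to between 19786 and 32594 CPM, with the fibronectin gene Fn1 highest at 5617 to 11119 CPM, while Dcn and Lum were at or below 2.10 CPM. WT line 2 alone expressed the Y-linked gene Ddx3y (91.8 to 107 CPM, against at most 0.195 CPM elsewhere), so the sex of the embryo and the genotype cannot be told apart within line 2. Isg15, an interferon-stimulated gene, ranged from 5.59 to 692 CPM and differed between libraries within the groups. It was at 6.24 to 58.3 CPM in WT line 1 and 99.2 to 692 CPM in WT line 2. In RTF2-deficient cells it was at 5.59 to 16.7 CPM in line 1 and 13.5 to 348 CPM in line 2.

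The 3 genes lie on chromosome 13 of GRCm38. Prl2c3 (Entrez Gene 18812, chr13:12790816-12800093) and Prl2c2 (18811, chr13:12996120-13005393) are on the minus strand, and Prl2c5 (107849, chr13:13182703-13191930) is on the plus strand, all by RefSeq's annotation. Together they span 401 kb, apart from the 23 other prolactin family genes of the same chromosome at chr13:27057570-28151595. Each has 1 compared GENCODE M21 transcript of 5 exons, of 842 bases for Prl2c2, 857 bases for Prl2c3 and 844 bases for Prl2c5. The transcripts of Prl2c2 and Prl2c3 were identical at 838 of 842 aligned bases (99.52%). Prl2c5 was 96.64% identical to Prl2c2 and 96.45% identical to Prl2c3.

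The 4 substitutions between Prl2c2 and Prl2c3 are written with the Prl2c2 base first, then the position counted from 1 at the 5′ end of the Prl2c2 transcript, then the Prl2c3 base. G8A lies in the 5′ UTR in exon 1, T71C in the coding part of exon 1, C257A in coding exon 2 and T376G in coding exon 4. The coding windows of the last 3 are shown because reads across these bases can separate Prl2c3 from Prl2c2, as can reads at the ends of the transcripts. Capitals mark bases that differ among the 3 genes, and each is written 5′ to 3′ on the transcribed strand of GRCm38.
Prl2c2 around T71C, chr13:13005296-13005326: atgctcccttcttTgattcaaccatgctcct
Prl2c3 around T71C, chr13:12799982-12800012: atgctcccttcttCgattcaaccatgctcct
Prl2c5 around T71C, chr13:13182782-13182812: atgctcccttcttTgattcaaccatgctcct
Prl2c2 around C257A, chr13:13002134-13002171: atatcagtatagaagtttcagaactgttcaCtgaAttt
Prl2c3 around C257A, chr13:12796831-12796868: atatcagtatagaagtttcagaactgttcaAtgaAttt
Prl2c5 around C257A, chr13:13185928-13185965: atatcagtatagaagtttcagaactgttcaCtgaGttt
Prl2c2 around T376G, chr13:12997434-12997467: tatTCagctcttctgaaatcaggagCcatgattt
Prl2c3 around T376G, chr13:12792141-12792174: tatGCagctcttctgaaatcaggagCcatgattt
Prl2c5 around T376G, chr13:13190586-13190619: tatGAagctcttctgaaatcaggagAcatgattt

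At T71C the base of Prl2c2 is also that of Prl2c5, so the stretch printed there singles out Prl2c3. The reads were 75 bases long and single-end. Among all stretches of 75 bases in each transcript, 19.92% occurred in no other gene's transcript for Prl2c2, 30.14% for Prl2c3 and 80.39% for Prl2c5. Counts of Prl2c2 and Prl2c3 therefore rest on few distinguishing reads or on a division of shared reads. If shared reads were divided among the 3 genes, the sum of the 3 counts does not depend on the division. If they were left out, the sum holds distinguishing reads alone and depends on which copy is expressed. The sum remains exposed to Gm7040 (chr13:13320830-13322532), a gene outside it that held 20.05% of the 75-base stretches of Prl2c2 and 19.67% of those of Prl2c3.

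**Figure D1:**
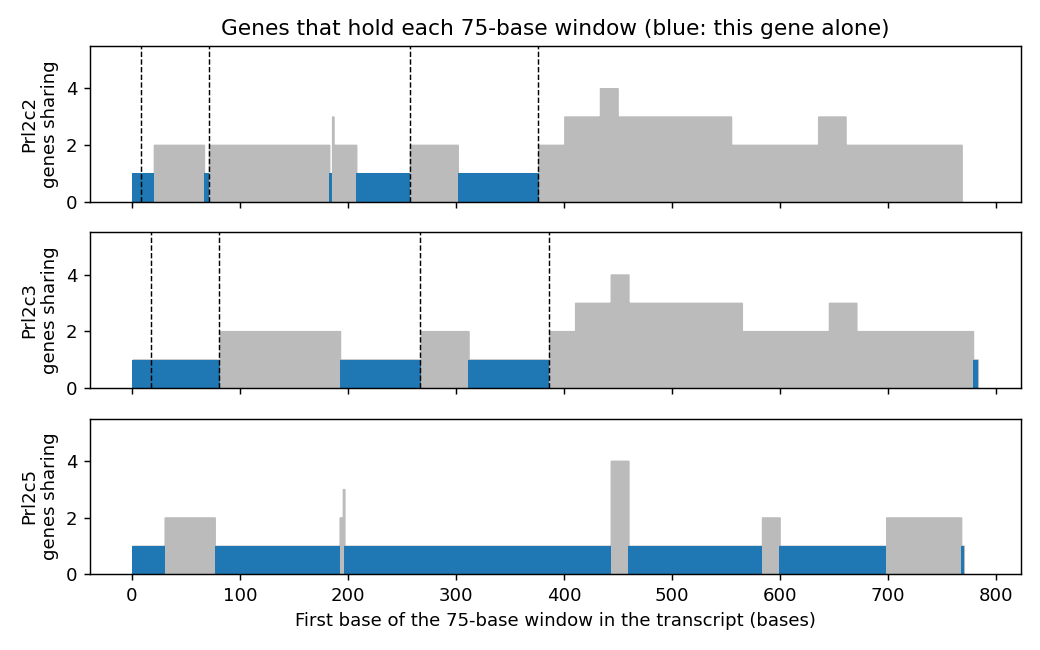
For each of the 3 transcripts, the number of genes (y axis) that share the 75-base stretch starting at each transcript position (x axis, bases); blue marks stretches found in 1 gene and dashed lines the substitutions between Prl2c2 and Prl2c3. Stretches found in 1 gene made up 19.92% of Prl2c2, 30.14% of Prl2c3 and 80.39% of Prl2c5.

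Prl2c3 counts were higher in RTF2-deficient cells than in WT cells of both lines, and all were low. WT line 1 had 0, 1 and 3 counts in replicates 1, 2 and 3, and RTF2-deficient line 1 had 7, 13 and 27. WT line 2 had 0, 0 and 3 counts, and RTF2-deficient line 2 had 21, 25 and 4. Every RTF2-deficient library lay above every WT library, but narrowly, with a highest WT level of 0.0724 CPM and a lowest RTF2-deficient level of 0.0904 CPM. Of all genes tested, 1.56% were separated in this way, and nothing is read from it for a gene chosen on this contrast.

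In sum, 97 Prl2c3 counts came from the 6 RTF2-deficient libraries and 7 from the 6 WT libraries. Scaled to depth, the ratio of these counts was 14.4, with an exact interval of 6.71 to 36.7. It was 11.8 (4.30 to 44.9) in line 1 and 17.9 (5.77 to 89.5) in line 2. These intervals pool reads over libraries and cover counting error only, so they are no test of a gene chosen on this contrast. The fitted log2 fold change was 3.72 (SE 0.77), with 3.44 (SE 1.11) in line 1 and 4.01 (SE 1.16) in line 2. Because WT libraries held at most 3 counts, Prl2c3 passed the filter on low counts only through the RTF2-deficient libraries.

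Prl2c2, the near-identical copy, did not follow that order in line 1. It had 2, 3 and 15 counts in WT line 1 and 1, 14 and 0 in RTF2-deficient line 1, so the groups overlapped. It had 5, 1 and 0 counts in WT line 2 and 22, 9 and 10 in RTF2-deficient line 2, where the groups did not overlap. The ratio of summed counts, RTF2-deficient over WT, was 0.750 (0.357 to 1.54) in line 1 and 7.33 (3.09 to 21.1) in line 2. The fitted log2 fold changes were -0.40 (SE 1.16) and 2.80 (SE 1.25), with 1.10 (SE 0.92) over both lines. The latter was 2.11 without WT line 1 replicate 3, the library with 15 counts. That library held 15 of the 20 counts of WT line 1, so the line 1 ratio and fold change rest largely on it.

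The difference between the lines in the genotype effect is also given without a test, since it is made of the genotype effects. It was 3.20 on the log2 scale (SE 1.73) for Prl2c2 and 0.57 (SE 1.94) for Prl2c3, and without WT line 1 replicate 3 these were 1.85 and -0.65. Without RTF2-deficient line 1 replicate 2 the value for Prl2c2 was 6.27. In edgeR's fit 1.05% of all genes were called for such a difference.

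Prl2c5 had no count in any WT library. RTF2-deficient line 1 had 0, 1 and 0 counts and RTF2-deficient line 2 had 1, 1 and 0. It did not pass the filter, and no fold change is given because no library reached the limit of 3 counts. Of the 3 members, 2 passed the filter. Of these, 1 met the rule for a call by genotype (adjusted p below 0.05 with a fold change larger than 1 on the log2 scale), which 1.72% of all 14263 genes tested met. It was Prl2c3, chosen on this contrast, so nothing is read from the count.

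**Figure D2:**
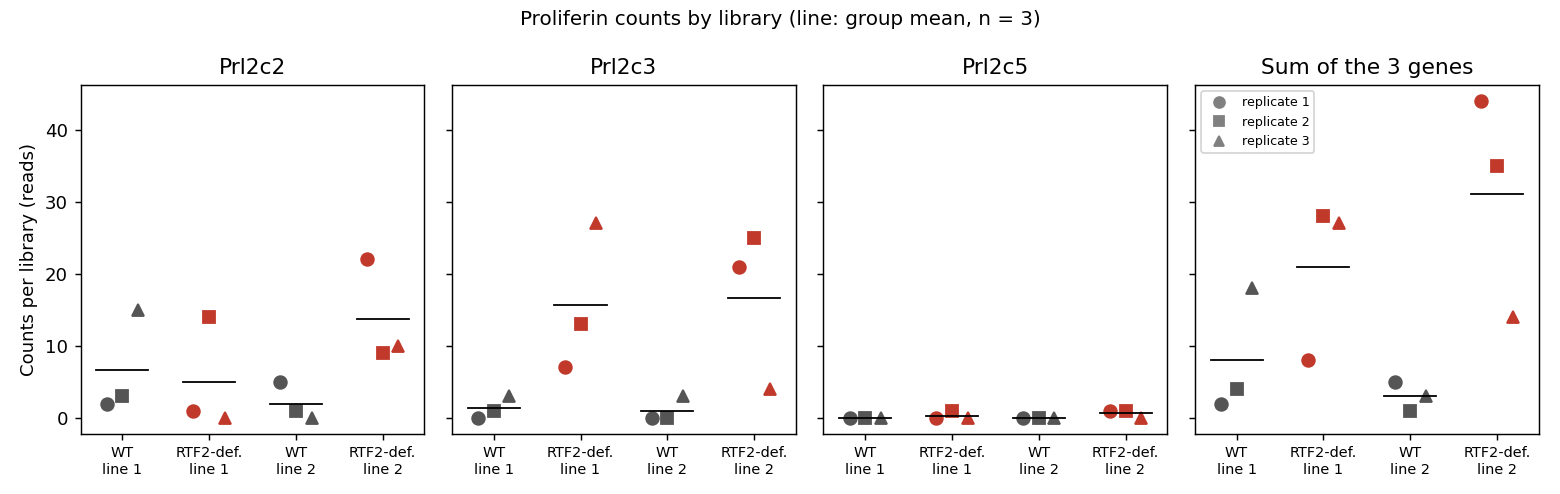
Counts per library (y axis, reads) of Prl2c2, Prl2c3, Prl2c5 and their sum in the 4 groups (x axis), with 1 symbol per replicate and a line at the group mean (n = 3). Prl2c3 lies at 0 to 3 in WT and 4 to 27 in RTF2-deficient libraries, whereas Prl2c2 overlaps between genotypes in line 1.

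The sum of the 3 genes was 2, 4 and 18 counts in WT line 1 and 8, 28 and 27 in RTF2-deficient line 1. It was 5, 1 and 3 in WT line 2 and 44, 35 and 14 in RTF2-deficient line 2. Genotypes overlapped in line 1 through WT replicate 3, whose 18 counts exceeded the 8 of RTF2-deficient replicate 1 there and the 14 of RTF2-deficient line 2 replicate 3. In line 2 they did not overlap. RTF2-deficient line 2 replicate 3, lowest of its group, also had Isg15 at 348 CPM against 13.5 and 34.3 CPM in the other libraries of the group, and the part of this in the result was not tested. Without that library the log2 fold change of the sum between genotypes was 2.42.

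By mean level, the sum was 0.758 ± 0.390 CPM (SD, n = 3) in RTF2-deficient line 2, 0.512 ± 0.278 in RTF2-deficient line 1, 0.194 ± 0.210 in WT line 1 and 0.0671 ± 0.0434 in WT line 2. Each neighbouring pair in this order overlapped in its libraries. The ratio of summed counts between genotypes was 4.90 (3.35 to 7.37) over both lines, 2.63 (1.62 to 4.39) in line 1 and 11.1 (5.59 to 25.0) in line 2. These intervals too cover counting error only and are no test, since the sum holds the chosen counts. The fitted log2 fold change was 2.29 (SE 0.62), with 1.39 (SE 0.77) in line 1 and 3.43 (SE 0.87) in line 2. It was 3.17 without WT line 1 replicate 3. The difference between these line values in the fit was 2.05 (SE 1.19), with no test since the sum holds the Prl2c3 counts, and it was 0.68 without WT line 1 replicate 3.

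The difference between lines was tested for Prl2c2 alone, because Prl2c3 was chosen for being high in RTF2-deficient cells of both lines and the sum holds its counts. Line 2 against line 1, with genotype in the model, gave Prl2c2 a log2 fold change of 0.14 (95% interval -1.84 to 2.13, edgeR adjusted p = 0.934). It was not called by line, against 5.74% of all genes, and the interval does not exclude a change of 2-fold in either direction. The 0.14 averages line differences of opposite direction in the 2 genotypes. Mean Prl2c2 was 0.161 ± 0.174 CPM (SD, n = 3) in WT line 1 and 0.0435 ± 0.0574 in WT line 2. In RTF2-deficient cells it was 0.122 ± 0.192 in line 1 and 0.329 ± 0.174 in line 2. Libraries of the 2 lines overlapped in both genotypes. Without 1 library the fitted value ran from -0.34 to 0.92. As a description, the line difference was 0.00 (SE 0.68) for Prl2c3 and -0.13 (SE 0.61) for the sum.

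**Figure D3:**
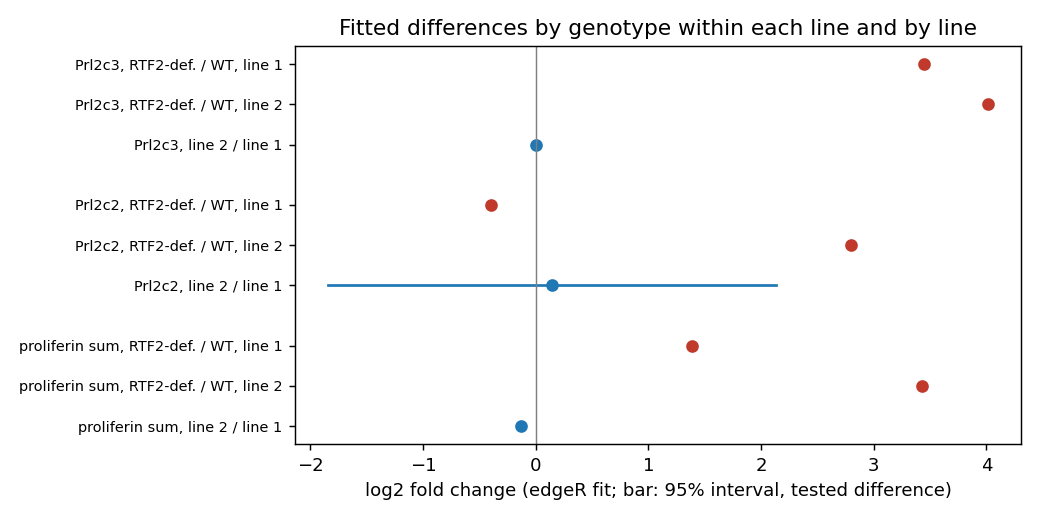
Fitted log2 fold changes (x axis) of Prl2c3, Prl2c2 and the sum between genotypes in each line (red points, description only) and between lines (blue points, with the 95% interval for Prl2c2, the one tested). The line differences, averaged over the genotypes, lie between -0.13 and 0.14, and the genotype value of Prl2c2 is -0.40 in line 1 and 2.80 in line 2.

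The division of counts between the near-identical copies was read in each library. Of the counts given to either Prl2c2 or Prl2c3, Prl2c3 took 87.5% (7 of 8), 48.1% (13 of 27) and 100% (27 of 27) in replicates 1, 2 and 3 of RTF2-deficient line 1. The Clopper-Pearson intervals of replicates 2 (28.7% to 68.1%) and 3 (87.2% to 100%) did not overlap, with 27 counts each. These intervals cover counting error alone. Over all genes, libraries of a group differed beyond counting error (chi-square per degree of freedom 20.5 to 180), where genes with many counts weigh most. That value does not measure the spread of a share of 27 counts. In RTF2-deficient line 2 the share was 48.8% (21 of 43), 73.5% (25 of 34) and 28.6% (4 of 14). In WT line 1 replicate 3 it was 16.7% (3 of 18), and no other WT library had more than 5 such counts. Per kilobase of transcript, the mean level in RTF2-deficient line 1 was 0.445 ± 0.293 CPM (SD, n = 3) for Prl2c3 and 0.145 ± 0.228 for Prl2c2, and in RTF2-deficient line 2 it was 0.481 ± 0.335 and 0.390 ± 0.206. The levels of both copies overlapped between libraries in each of these groups. These levels use the whole transcript length, while how shared reads were counted is not settled. Over the 12 libraries the log2 CPM of Prl2c2 and Prl2c3 had a Spearman's rho of 0.20 and a Pearson's r of 0.30, as a description of values that share libraries and reads.

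**Figure D4:**
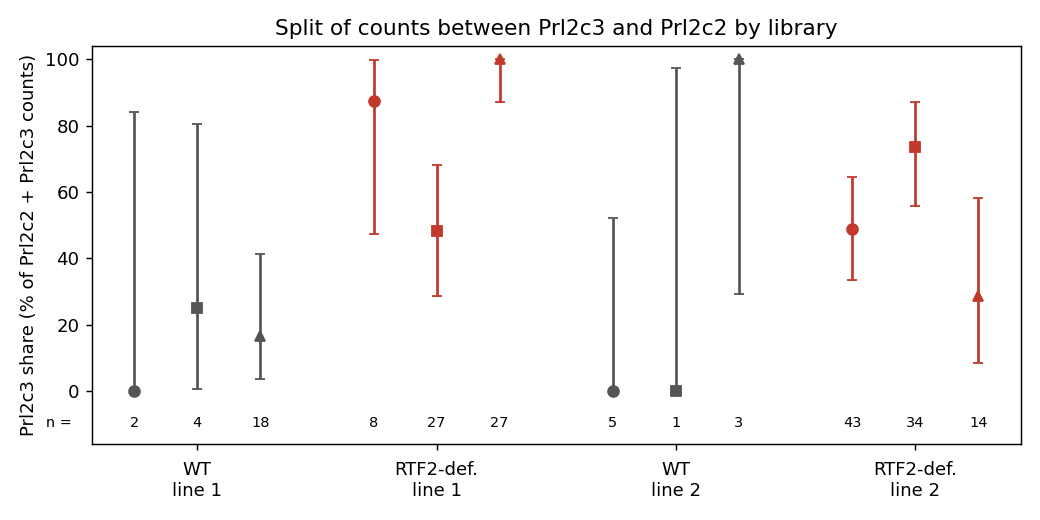
Prl2c3 share (y axis, % of Prl2c2 and Prl2c3 counts) in each library of the 4 groups (x axis), with 95% Clopper-Pearson intervals and the number of counts below each point. In RTF2-deficient line 1 the shares run from 48.1% to 100%, and WT libraries rest on at most 18 counts.

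The promoters of Prl2c3 and Prl2c5 were compared because the copies differ in counts. RefSeq's table (GRCm38.p6) held these 2 of the 3 members. The 250 bases before the transcript start that the table uses, which lies inside the outer gene bounds given above, are printed 5′ to 3′, with capitals where the 2 differ.
Prl2c3 promoter, chr13:12800080-12800329, minus strand: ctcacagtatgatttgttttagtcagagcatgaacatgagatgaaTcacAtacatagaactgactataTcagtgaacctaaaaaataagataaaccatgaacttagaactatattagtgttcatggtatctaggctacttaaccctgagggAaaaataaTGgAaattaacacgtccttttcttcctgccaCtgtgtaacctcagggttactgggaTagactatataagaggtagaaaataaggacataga
Prl2c5 promoter, chr13:13182466-13182715, plus strand: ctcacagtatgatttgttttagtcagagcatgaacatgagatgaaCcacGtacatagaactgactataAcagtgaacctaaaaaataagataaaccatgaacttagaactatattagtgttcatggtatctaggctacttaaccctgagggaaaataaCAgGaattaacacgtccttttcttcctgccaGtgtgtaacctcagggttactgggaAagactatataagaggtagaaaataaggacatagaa

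They were identical at 241 of 249 aligned bases. Proliferin transcription is known for its response to AP-1, the dimer of Fos and Jun proteins. The AP-1 core with any middle base, TGANTCA on both strands, was found once in Prl2c3, at position -209, and not in Prl2c5. It was in 7.81% of 32851 windows of 300 bases. Neither gene held TGACTCA or its reverse complement TGAGTCA, found on either strand in the same 5.20% of windows. On the sense strand TATANAN was found at -30 in Prl2c3 and at -31 in Prl2c5, against 17.93% of windows. Each gene also had 1 match on the other strand, and 24.61% of windows had a match on either strand. A match is a description of letters only.

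Genes of AP-1 and the glucocorticoid receptor gene Nr3c1 were compared next, and all 8 passed the filter. None was called by genotype or by line, where 1.72% and 5.74% of all genes were, so a list of 8 would hold few calls in any case. Their median log2 fold change by genotype was -0.16, against 0.00 over all genes. Fosl1, which encodes a Fos-related AP-1 subunit, was -0.29 (edgeR adjusted p = 0.433) and Jun was -0.25 (adjusted p = 0.124) by genotype, whereas Fosb, another Fos family gene, was 0.38 (adjusted p = 0.375). Between lines, Fosl1 was 0.95 (adjusted p = 0.0170), Jun 0.62 (adjusted p = 0.00198) and Fosb 0.87 (adjusted p = 0.0455), all below the fold threshold. The rest of the list was at -0.19 (Fos), -0.03 (Junb), 0.02 (Jund), 0.05 (Nr3c1) and 0.24 (Fosl2) by line, none with an adjusted p below 0.05.

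Of the 3 receptor genes, none was called by genotype, against 1.72% of all genes. Igf2r, encoding the receptor that proliferin binds, was at 269 to 435 CPM with a genotype log2 fold change of 0.16 (SE 0.12, edgeR adjusted p = 0.419). Prlr, the prolactin receptor gene, had 2 to 23 counts per library and a value of -0.11 (adjusted p = 0.876). M6pr, the smaller mannose-6-phosphate receptor gene, had -0.01 (adjusted p = 0.951). Its mean was 134 ± 6.61 CPM (SD, n = 3) in WT and 152 ± 11.1 in RTF2-deficient cells of line 1, and 181 ± 2.45 and 157 ± 4.91 in line 2. The interaction was -0.39 (edgeR adjusted p = 0.103), which was not called.

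The other prolactin family genes were low. Of the 24 names on the list, Prl2c4 is a RefSeq synonym of Prl2c3. Of the 23 others, 7 had no count in any library, Prl2c1 among them, and only Prl8a1 reached 10 counts in a library. Prl8a1 had 12, 11 and 12 counts in WT line 1 and 17, 28 and 23 in RTF2-deficient line 1, and 36, 31 and 26 against 27, 41 and 23 in line 2, so the genotypes separated in line 1 and overlapped in line 2. Its genotype log2 fold change was 0.48 (SE 0.25, edgeR adjusted p = 0.215) and its line difference was 0.83 (SE 0.25, adjusted p = 0.0386), below the fold threshold. The whole other family summed to 0.358 to 1.20 CPM in WT and 0.573 to 1.54 CPM in RTF2-deficient libraries. 
Trophoblast markers, which mark the placental cells that make proliferin, were low. Among the 14 listed, 2 were at 0 in every library, and they summed to 0.917 to 3.78 CPM in WT and 0.692 to 2.12 CPM in RTF2-deficient libraries. Of the 3 that were tested, none was called by genotype (1.72% of all genes) and 1 by line (5.74% of all genes). Eomes, a T-box factor, was higher in line 2 than in line 1 by 2.63 on the log2 scale (edgeR adjusted p = 0.00344).

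The 10 nearest tested genes, 5 on each side of the cluster, were also read. None of the 10 was called by genotype or by line, against 1.72% and 5.74% of all genes, and their genotype log2 fold changes ran from -0.50 (Lgals8, SE 0.23) to 0.32 (Lyst). The nearest, Gpr137b-ps at 140 kb and Gpr137b at 166 kb, had 0.24 and 0.23 (edgeR adjusted p = 0.0943 and 0.0864). Some neighbours passed the adjusted p but not the fold threshold. B3galnt2 was lower by genotype at -0.27 (adjusted p = 0.0305), and Gpr137b-ps and Gpr137b were lower in line 2 at -0.40 (adjusted p = 0.0115) and -0.46 (adjusted p = 0.00405). The 10 other RefSeq genes between the proliferin genes were not analysed here.

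The genes whose levels ordered the 12 libraries most like Prl2c3 among 12240 tested genes above a mean of 1 CPM were Arid3a (Spearman's rho 0.988), Surf6 (0.974), Slc35a3 (0.970), Ivns1abp (0.963) and Mbtps2 (0.960), where the 99th percentile of all such genes was 0.885. Arid3a encodes a DNA-binding protein and was at 10.3 to 12.9 CPM in RTF2-deficient libraries and lower in every WT library, down to 7.16 CPM. Its genotype log2 fold change was 0.35. Ivns1abp was at 113 to 144 CPM in WT and 171 to 245 CPM in RTF2-deficient libraries, with a log2 fold change of 0.58. The 5 genes were picked as the top of this ranking, so their place above the 99th percentile was set by the choice. Prl2c3 was chosen for its difference between genotypes, so such differences in genes ordered like it are part of that choice too. The ranks of Prl2c3 rest on counts of 0 to 27, and these values are a description.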

How the data were processed

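RNA was measured in 12 libraries of 4 groups, defined by the labels. The deposited values are whole read counts for each Entrez Gene identifier, which the authors did not normalize. The methods name Salmon and tximport on mm10 gene models, whereas the submitters' processing notes name HTSeq, so how reads shared by near-identical copies were counted is not settled. Reads were single-end, of 75 bases. The strand setting of the counting: not given in the sources used here. Symbols came from RefSeq (24045 of 24100 identifiers) and transcripts from GENCODE M21 (GRCm38).

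Genes passing filterByExpr (14263) were TMM-normalized and fitted with edgeR 4.0.16 (R 4.3.3, limma 3.58.1) quasi-likelihood models with terms for line and genotype, or 4 groups for effects within a line and interactions, and p-values were adjusted by Benjamini-Hochberg over all genes. A call required an adjusted p below 0.05 with a fold change larger than 1 on the log2 scale. The 3 proliferin counts were also summed as 1 gene. Shares have 95% Clopper-Pearson intervals, and ratios of summed counts the interval from the same binomial. Depth was 39360167 to 44695002 counts. Alternatives were RLE normalization, no filter, DESeq2 1.42.0, a replicate block, the 3 rows summed, and each library left out. The genes named followed a rule: the members, Rtf2, other prolactin family genes with 10 or more counts in a library, receptors, AP-1 genes with Nr3c1, 5 neighbours on each side, the 5 genes most like Prl2c3, and markers only where called or highest. Members and lists were chosen with earlier results of these data known. Isg15 and Ddx3y (library checks) and the low markers Dcn and Lum were named after their values were seen.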

Additional observations from a re-analysis of the deposited data

How the results depend on the processing

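Among comparisons and alternatives, 72 of 98 values kept their direction and call (counts of genes: stayed within 1.5 times), 7 counts moved and 19 line differences changed sign. The counts were of genes called by interaction, 150 as reported, 268 with DESeq2 and 59 to 140 when 1 library was left out, where 6 of 12 fits gave 90 or fewer, lowest without RTF2-deficient line 2 replicate 2. The line difference without 1 library ran from -0.34 to 0.92 for Prl2c2, from -0.39 to 0.46 for Prl2c3 and from -0.48 to 0.40 for the sum. It was -0.15 for Prl2c2 and -0.0889 for Prl2c3 with DESeq2, -0.00365 (RLE) and -0.0197 (no filter) for Prl2c3, and -0.13 with the 3 rows summed. For Prl2c2, the one tested in the report, the lowest adjusted p (edgeR or DESeq2) was 0.524.

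Among single genes, 517 of 546 values kept theirs, 2 moved and 27 changed sign, none of them called. The 2 were the genotype values of Prl2c2 and Prl2c3, each 2.29 once the 3 rows were summed. Leaving out 1 library, the genotype log2 fold change ran from 3.45 to 4.23 for Prl2c3, from 0.70 to 2.11 for Prl2c2 and from 2.03 to 3.17 for the sum. The interaction ran from 1.85 to 6.27 for Prl2c2, from 0.68 to 2.57 for the sum and from -0.65 (without WT line 1 replicate 3) to 3.67 for Prl2c3. The 3.67 (without WT line 2 replicate 3) is no estimate, since WT line 2 then had 0 Prl2c3 counts. The genotype values of other genes that changed sign ran, without 1 library, from -0.25 to 0.0918 for Actn2, -0.0460 to 0.115 for Ero1b, -0.19 to 0.0842 for Fos, -0.0553 to 0.0370 for Junb, -0.0461 to 0.0243 for M6pr (0.000929 with no filter), -0.14 to 0.00572 for Nr3c1 and -0.29 to 0.12 for Prlr. The cause was not tested.

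With a replicate block, 227 genes were called by genotype, 755 by line and 112 by interaction, and the block gave line differences of 0.14 for Prl2c2 (edgeR adjusted p = 0.942), 0.14 for Prl2c3 and -0.02 for the sum. The numbers were not taken as pairing, since not every same-numbered pair correlated above 0.1 (11 of 18, r from -0.587 to 0.625, median 0.228), although 8 of 12 libraries correlated best with their own number. The members rest on few counts: Prl2c5 had 3 in all and did not pass the filter, and WT Prl2c3 had 7.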
